A study of Mus musculus with 24 samples.

Results

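Among the repeat subfamilies measured by m6A MeRIP-seq in mouse embryonic stem (ES) cells, 1 row stood for a structured RNA, the 7SK repeat. Of 49090 features in the table, 47937 were genes and 1153 were repeat subfamilies, each listed by name, family and class, and the members were the subfamilies with tRNA, rRNA, snRNA, scRNA, srpRNA or RNA as their class. The 7SK row, of class RNA, was the 1 row of 1153 that met this rule. No row used here had tRNA, rRNA, snRNA, scRNA or srpRNA as its class, so the total of the class RNA equals the 7SK row, and no value is given for the other classes. The gene that encodes the same RNA, Rn7sk (ENSMUSG00000065037.1), has a separate row among the genes and is described beside it.

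7SK is an abundant nuclear RNA made by RNA polymerase III. It holds the elongation kinase P-TEFb, a complex of Cdk9 and cyclin T, in an inactive particle together with Hexim1, the inhibitor that blocks the kinase, while Mepce caps the 5′ end of the RNA and Larp7 binds its 3′ end. m6A is written on most polyadenylated RNAs by the Mettl3 and Mettl14 heterodimer, and other enzymes, such as Mettl16, Mettl5 and Zcchc4, write it on particular structured RNAs. In MeRIP, RNA fragments are pulled down with an antibody against m6A, and the immunoprecipitated RNA (IP) is compared with the starting RNA (input).

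Nuclear RNA was compared in 4 ES cell lines grown with serum replacement and LIF. These were the wild type line WT26, the *Mettl14* KO line (1 clone made by genome editing, with a frame shift), the line RBC (Rosa26 BirA-V5, Cre-ERT2) and the *Mettl3* KO line derived from it (1 clone). The RNA-seq labels give 129/Sv x C57Bl6 as the strain of all 4 lines. Each line had 2 replicates of MeRIP input, MeRIP IP and RNA-seq, and each knockout was compared with its own control, *Mettl14* KO with WT26 and *Mettl3* KO with RBC. In bulk RNA, less RNA per cell and fewer cells that carry it cannot be told apart.

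MeRIP libraries held between 9394163 and 28441282 counts, with 19302923 or more in every replicate 1 and 16239506 or fewer in every replicate 2, and RNA-seq libraries held 11321459 to 13743181. Values below are normalized counts, that is, counts divided by a size factor per library. In RNA-seq, Mettl14 had 296.5 and 315.6 normalized counts in *Mettl14* KO against 400.6 and 357.5 in WT26, and Mettl3 had 880.0 and 820.9 in *Mettl3* KO against 927.7 and 978.9 in RBC. A frame shift, stated for the *Mettl14* KO clone only, need not lower the number of reads. The lesion of the *Mettl3* KO clone is not stated here, so these levels do not check the knockout labels. The ES cell markers Pou5f1, Sox2, Nanog, Zfp42, Esrrb and Klf4 were present in every RNA-seq library, with lowest values between 1052 and 2563 normalized counts.

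Rn7sk is a gene of 331 bases at chr9:78175303-78175633 on the minus strand of GRCm38, annotated as misc_RNA and overlapped by no other gene. Its sequence is shown because the genome holds 213 further copies of it, which bear on which reads can be placed. The copies cover mainly the first 241 bases of the RNA. A read of 75 bases, the length sequenced here, that starts at any of the first 167 bases has an exact match in a copy, and a read that starts later has none. The reads were paired, and the mates were not considered here. In the first stretch the capitals mark GATC, the repeated element of the 5′ hairpin that Hexim proteins bind. In the last stretch they mark RRACH, the m6A consensus (R is a purine and H any base but G), searched on the sense strand as 12 pentamers.
Rn7sk bases 1 to 241: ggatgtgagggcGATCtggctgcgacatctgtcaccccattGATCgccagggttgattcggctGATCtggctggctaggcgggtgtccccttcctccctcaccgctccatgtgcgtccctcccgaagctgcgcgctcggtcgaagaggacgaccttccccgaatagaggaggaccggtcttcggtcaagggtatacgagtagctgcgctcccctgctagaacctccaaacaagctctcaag
Rn7sk bases 242 to 331: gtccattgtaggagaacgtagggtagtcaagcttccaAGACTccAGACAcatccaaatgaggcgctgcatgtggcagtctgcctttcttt

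Rn7sk held 5 RRACH pentamers, GGACC from base 171, GAACC from base 219, AAACA from base 227, AGACT from base 279 and AGACA from base 286. Of 129282 annotated transcripts at least as long, 98.5% had such a pentamer in their first 331 bases, 52.1% had at least 5, and the median was 5. GATC occurred 3 times, at bases 13, 42 and 64, and 8.0% of the same transcripts had as many in that length. These letters are a description and not sites of modification or binding.

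Over bases 1 to 241 a median of 163 copies aligned to each base, and over bases 242 to 331 a median of 6. Of the 213 copies, 184 lay on a misc_RNA gene of the same strand, 100 on another gene and 16 on no gene. The copy most like Rn7sk, Gm24447 at chr15:93234363-93234603 on the plus strand, matched bases 1 to 241 at 100% identity, and 4 copies shared at least 1 exact window of 75 bases. Reads that fit several places were shared among features when the authors counted them, so the 7SK row may hold reads of Rn7sk and of its copies. Which positions the repeat annotation gives to the 7SK row was not analysed here.

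**Figure D1:**
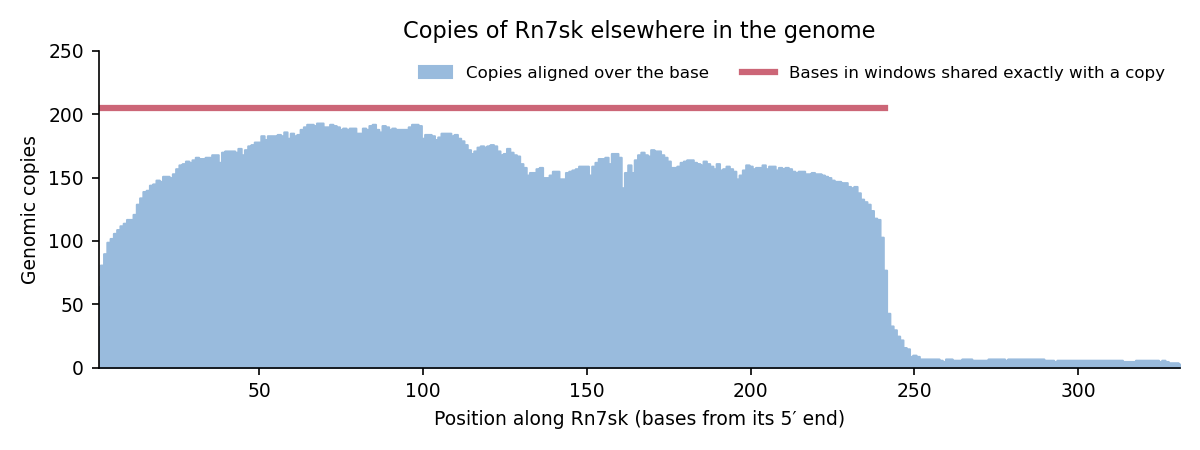
Number of genomic copies (vertical axis) aligned over each base of Rn7sk (horizontal axis, bases from the 5′ end). The red bar marks bases 1 to 241, inside windows of 75 bases that a copy matches exactly. Copies are frequent up to base 241 and rare from base 242 to 331.

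The input level of 7SK was highest in *Mettl14* KO cells and lowest in RBC, with no called difference between lines. Its normalized counts were 15071 and 16024 in WT26 (15548 ± 674, SD, n = 2), and 22388 and 19126 in *Mettl14* KO (20757 ± 2307, SD, n = 2). They were 12957 and 7227 in RBC (10092 ± 4052, SD, n = 2), and 15831 and 8533 in *Mettl3* KO (12182 ± 5161, SD, n = 2). Both *Mettl14* KO inputs lay above both WT26 inputs, and the *Mettl3* KO and RBC inputs overlapped, with the *Mettl3* KO value the higher in each replicate. As a share of all counts in a library, 7SK ranged from 0.0387% (95% Wilson interval 0.0377 to 0.0397, RBC replicate 2) to 0.122% (0.121 to 0.124, *Mettl14* KO replicate 1). These intervals cover counting error only, and the replicates of each line lay further apart than the intervals allow.

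The log2 fold change of the 7SK input was 0.42 between *Mettl14* KO and WT26 (standard error 0.722, 95% interval -1.13 to 1.97, adjusted p = 0.959 in edgeR). It was 0.27 between *Mettl3* KO and RBC (95% interval -1.28 to 1.82, adjusted p = 0.951) and -0.62 between the controls RBC and WT26 (95% interval -2.18 to 0.93, adjusted p = 1). None passed the threshold of an adjusted p of 0.05, and over all 22621 features tested 0.398%, 0.76% and 0.584% did in these comparisons. The input changes of the knockouts differed by 0.15 (95% interval -2.04 to 2.33, adjusted p = 1), where 0.141% of features passed. Both knockout intervals allow a change of more than 2-fold either way.

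Among repeats, 7SK ranked 92 of 1143 subfamilies with a count by its mean over the 8 inputs, and held 0.0925% to 0.318% of the repeat counts of an input. This is a share of reads, since the length of the annotated repeat was not used.

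In every line and both replicates the IP held far less 7SK than the input. In WT26 it fell from 15071 to 1336 normalized counts in replicate 1 and from 16024 to 546.9 in replicate 2. The *Mettl14* KO IPs had 2590.2 and 506.2, the RBC IPs 1459 and 328.9, and the *Mettl3* KO IPs 2683 and 1225. No IP value of any line reached the lowest input value, 7227. Relative to its own input, the IP of WT26 held 8.86% and 3.41%, that of *Mettl14* KO 11.6% and 2.65%, that of RBC 11.3% and 4.55%, and that of *Mettl3* KO 17.0% and 14.4%.

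**Figure D2:**
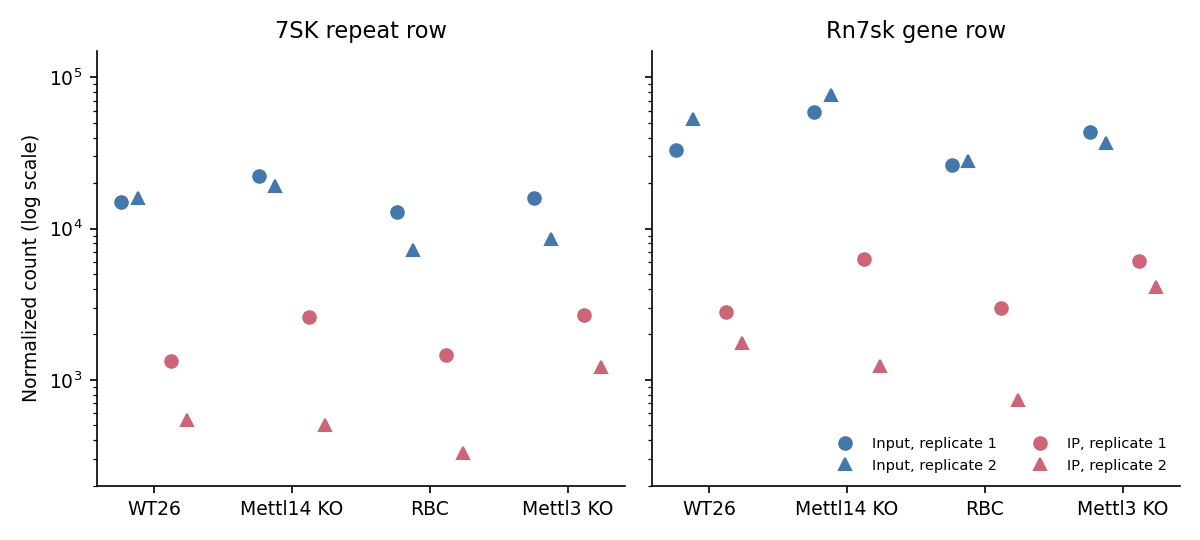
Normalized counts (log scale) of the 7SK repeat row (left) and the Rn7sk gene row (right) in each library of the 4 lines, blue for input and red for IP, with circles for replicate 1 and triangles for replicate 2. All 7SK inputs lie at or above 7227 and all IPs at or below 2683.

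Calls of depletion in the IP required an adjusted p no greater than 0.05 together with a log2 fold change below -1. 7SK met both in WT26, where the log2 fold change was -4.04 (SE 0.817, adjusted p = 0.00701 in edgeR), which is 16.5-fold. It met both in *Mettl14* KO at -3.74 (SE 0.805, adjusted p = 0.0104) and in RBC at -3.49 (SE 0.796, adjusted p = 0.011). The *Mettl3* KO value, -2.64 (SE 0.767, adjusted p = 0.0597), missed the threshold. With each input and IP of 1 replicate as a block, the *Mettl3* KO value was -2.68 and passed (adjusted p = 0.0373). Over the 9 alternatives other than leaving out a replicate its adjusted p ranged from 2.39e-12 to 0.0756.

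The share of all 22621 features called lower was 13.5% in WT26, 9.91% in *Mettl14* KO, 11.1% in RBC and 1.86% in *Mettl3* KO. The share called higher, at a log2 fold change above 1, was 14.5%, 11.9%, 13.4% and 2.54%. So the *Mettl3* KO line had fewer calls in both directions, and the missed call of 7SK fell in the line with the fewest calls. The calls also rested on replicate 2, whose IP values were the lower of the pair in all 4 lines. Without it, 7SK had a log2 fold change of -3.49 in WT26 (adjusted p = 0.288), -3.10 in *Mettl14* KO (adjusted p = 0.305) and -3.15 in RBC (adjusted p = 0.37), and none was called. Without replicate 1 the calls stood in these 3 lines, with log2 fold changes of -4.87, -5.24 and -4.46. A line left with 1 replicate was assumed to vary like the others.

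7SK lay at the lower edge of the repeats. Of 1097 repeat subfamilies tested, 1 had a lower fold change of IP over input than 7SK in WT26, 3 in *Mettl14* KO, 1 in RBC and 2 in *Mettl3* KO. The median repeat had -1.29, -1.10, -1.15 and -0.68 in these lines, so that 7SK lay -2.75, -2.64, -2.34 and -1.96 from it. Against all features, 0.725%, 0.884%, 0.721% and 1.11% lay below 7SK. MER47C, a DNA transposon, was the subfamily below it in WT26 at -4.53, and LTR9A1, an LTR, lay below it in both knockouts.

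**Figure D3:**
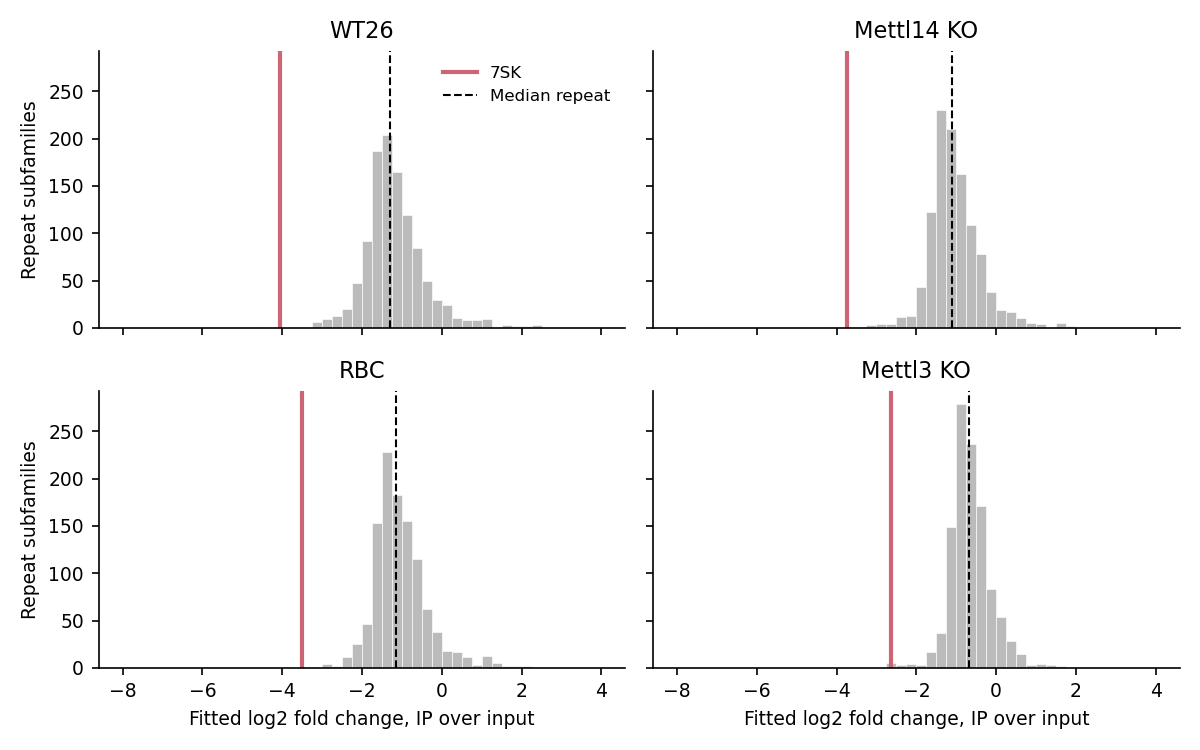
Fitted log2 fold change of IP over input (horizontal axis) of the 1097 repeat subfamilies tested, as a count of subfamilies (vertical axis), in each line. The red line marks 7SK and the dashed line the median repeat. 7SK sits at the left end in all 4 lines, at -4.04 in WT26, -3.74 in Mettl14 KO, -3.49 in RBC and -2.64 in Mettl3 KO.

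The depletion of 7SK in the IP did not pass the test of a difference between lines. The change of IP over input was 0.30 in *Mettl14* KO against WT26 (95% interval -1.89 to 2.49, adjusted p = 1 in edgeR) and 0.85 in *Mettl3* KO against RBC (95% interval -1.34 to 3.05, adjusted p = 0.857). Between RBC and WT26 it was 0.55 (95% interval -1.64 to 2.74, adjusted p = 1), and between the 2 knockout changes -0.55 (95% interval -3.65 to 2.55, adjusted p = 1). In each of these comparisons 0% of the 22621 features passed in edgeR. At an unadjusted p under 0.05 there were 126, 787, 133 and 214 features, and DESeq2 called 1, 0, 0 and 0. Each interval reaches past 4-fold in at least 1 direction. In simulated data the edgeR test of *Mettl14* KO against WT26 recovered 12% of 4-fold changes of IP over input, so most changes of that size would be missed. Both *Mettl3* KO pairs, at -2.56 and -2.80, lay above the RBC pairs, at -3.15 and -4.46, while the *Mettl14* KO pairs (-3.11 and -5.24) lay on either side of those of WT26 (-3.50 and -4.87).

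The Rn7sk gene row showed the same depletion at a higher count. For WT26 the inputs had 33110.1 and 53015 normalized counts and the IPs 2792 and 1742. For *Mettl14* KO they had 58631 and 75967, against 6322 and 1237. For RBC the inputs had 26338 and 27813 and the IPs 3012 and 736.3, and for *Mettl3* KO they had 43383 and 36627, against 6072 and 4117. Inputs and IPs did not overlap in any line. Rn7sk was called lower in the IP of WT26 (log2 fold change -4.25, adjusted p = 0.00514 in edgeR), *Mettl14* KO (-4.15, adjusted p = 0.00683), RBC (-3.85, adjusted p = 0.00757) and *Mettl3* KO (-2.97, adjusted p = 0.0306).

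The Rn7sk calls also depended on single replicates. Without replicate 2 of the line, its log2 fold change was -3.56 in WT26, -3.20 in *Mettl14* KO and -3.12 in RBC (adjusted p = 0.249, 0.215 and 0.333). In *Mettl3* KO it was -3.16 without replicate 1 and -2.84 without replicate 2 (adjusted p = 0.209 and 0.744). When the 7SK and Rn7sk rows were summed as 1 feature, a choice made after seeing the data, 7SK was called lower in the IP of all 4 lines, with log2 fold changes from -4.19 in WT26 to -2.89 in *Mettl3* KO (adjusted p = 0.0355 in edgeR). Input differences between lines did not pass for Rn7sk either, at 0.64 in *Mettl14* KO against WT26 and 0.56 in *Mettl3* KO against RBC (adjusted p = 0.876 and 0.834).

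The ratio of 7SK counts to Rn7sk counts differed between the replicates in the inputs. Per count of Rn7sk, the 7SK row had 0.365 to 0.492 counts in the 4 replicate 1 inputs and 0.233 to 0.302 in the 4 replicate 2 inputs, without overlap. In the IPs the range was 0.41 to 0.484 in replicate 1 and 0.298 to 0.447 in replicate 2. This ratio is taken within a library and does not depend on the size factors. What lowered it in replicate 2 was not tested, and the replicate 2 libraries were also the shallower ones. In contrast, the gene rows of the 184 copies on misc_RNA genes held little, between 0.992% and 2.4% of the Rn7sk counts in the inputs. Their summed level was 550.0 and 607.2 normalized counts in the WT26 inputs and 238.6 and 179.0 in its IPs, so the IP held 43.4% and 29.5% of the input level, compared with 8.43% and 3.29% for Rn7sk.

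Other structured RNAs with a gene row were also low in the IP. From a list of 21 RNA genes, 18 had a row and 16, Rn7sk among them, were tested. The main edgeR test called 12 of 16 lower in WT26, 11 in *Mettl14* KO, 11 in RBC and 8 in *Mettl3* KO, and called none higher. Over all 22621 features, 13.5%, 9.91%, 11.1% and 1.86% were called lower in these lines, and 14.5%, 11.9%, 13.4% and 2.54% higher. The median log2 fold change of the 16 genes was -4.72, -5.06, -4.21 and -3.69. That of all features was 0.02, 0.01, 0.02 and -0.01. 7SK, at -4.04, -3.74, -3.49 and -2.64, was less depleted than the median of these genes in all 4 lines. These counts rested on single libraries too. Without replicate 2 of the line 3 genes were called lower in WT26, 4 in *Mettl14* KO and 2 in RBC, and without replicate 1 it was 9 in each. In *Mettl3* KO 0 were called without replicate 1 in edgeR, where Rmrp, Rn7s2 and Rpph1 still had -4.48, -4.45 and -4.12 (adjusted p = 0.0915 for each), and 5 without replicate 2.

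Rmrp, the RNA of RNase MRP, had 71773 and 67446 normalized counts in the WT26 inputs and 494.0 and 326.5 in the IPs, without overlap. Its log2 fold change was -7.40 in WT26, -7.01 in *Mettl14* KO, -6.98 in RBC and -5.13 in *Mettl3* KO, and it was called in all 4 lines. It lies at chr4:43492788-43493058 and is overlapped by Ccdc107 on the other strand. Rpph1, the RNA of RNase P, at chr14:50807449-50807767 and overlapped by Ccnb1ip1 on the same strand, had -5.20, -5.76, -4.53 and -4.50 and was called in all 4. Terc, the telomerase RNA, had -4.26, -4.82, -3.65 and -3.67 and was called in all 4.

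Rn7s2, a gene of 7SL, the RNA of the signal recognition particle, was called in all 4 lines with -7.03, -6.06, -5.53 and -4.82. Its near-identical copy Rn7s1 was called in WT26 (-4.65), *Mettl14* KO (-6.72) and RBC (-6.63) and had -4.20 in *Mettl3* KO (adjusted p = 0.0689 in edgeR). How the reads were split between these copies is uncertain. Rn7s1 is also overlapped by Gm47287 and Gm47295, and Rn7s2 by Gm47299 and Gm47305, all on the same strand as the gene they overlap. The small nuclear RNAs Rnu1a1 and Rnu1b1 of U1 were called in all 4 lines, between -3.81 and -2.65 for Rnu1a1 and between -7.79 and -5.11 for Rnu1b1. Rnu3a, the U3 small nucleolar RNA, has 2 gene identifiers with equal counts in all 16 libraries and was counted once. It had 616 to 6408 counts in the inputs, 0 to 21 in the IPs, and was called in all 4.

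The Y RNAs Rny1 and Rny3, partners of the Ro protein, rested on few reads. Rny1 had 32 to 75 counts in the replicate 1 inputs, 3 to 10 in the replicate 2 inputs and 0 to 2 in the IPs. Both were called lower in WT26, *Mettl14* KO and RBC, with adjusted p between 0.0176 and 0.046 in edgeR, and not in *Mettl3* KO. With the replicate block both were called there as well, Rny1 at -5.43 (adjusted p = 0.0197) and Rny3 at -3.83 (adjusted p = 0.0248). DESeq2 did not call Rny3 in RBC (adjusted p = 0.06). With any 1 replicate of the line left out, neither was called in WT26, *Mettl14* KO or RBC. Rnu12, the U12 small nuclear RNA, had -3.07 in WT26 (adjusted p = 0.0392) and -2.53 in RBC (adjusted p = 0.0748). Its WT26 call was lost with library size scaling (adjusted p = 0.0542) and with size factors from repeats (adjusted p = 0.139), and with the replicate block Rnu12 was called in RBC as well (-2.79, adjusted p = 0.0278). Rnu11, Rnu1b6, Rnu2-10 and Rnu5g were called in no line in the main edgeR test. With the block, Rnu11 was called in WT26 (-3.12, adjusted p = 0.0441) and RBC (-3.62, adjusted p = 0.0464). Over the alternatives that kept both replicates, the adjusted p of Rnu2-10 ranged from 2.49e-08 to 0.331 in WT26 (-2.98 to -1.64). In *Mettl14* KO it ranged from 6.04e-05 to 0.518 for Rnu2-10 (-2.43 to -1.11) and from 0.0343 to 0.474 for Rnu5g (-2.18 to -1.07). Rnu1b6 had counts from 0 to 167 that differed between replicates. It was called with the block in WT26 and RBC (adjusted p = 0.0481 and 0.0459). Over the alternatives that kept both replicates it had -8.93 to -8.55 in WT26 and -4.28 to -2.37 in RBC. In *Mettl3* KO it had 5.51 to 6.80, higher in the IP, from 31 counts in the replicate 1 IP and 0 in both inputs. Its lowest adjusted p over these alternatives was 1.88e-16 in WT26, 2.04e-10 in RBC and 9.33e-05 in *Mettl3* KO. No reading is drawn from these values. With at least 10 counts required in every library, 5 listed genes were called in each line. Other alternatives that kept both replicates called up to 15 lower in WT26, 14 in *Mettl14* KO, 14 in RBC and 12 in *Mettl3* KO.

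**Figure D4:**
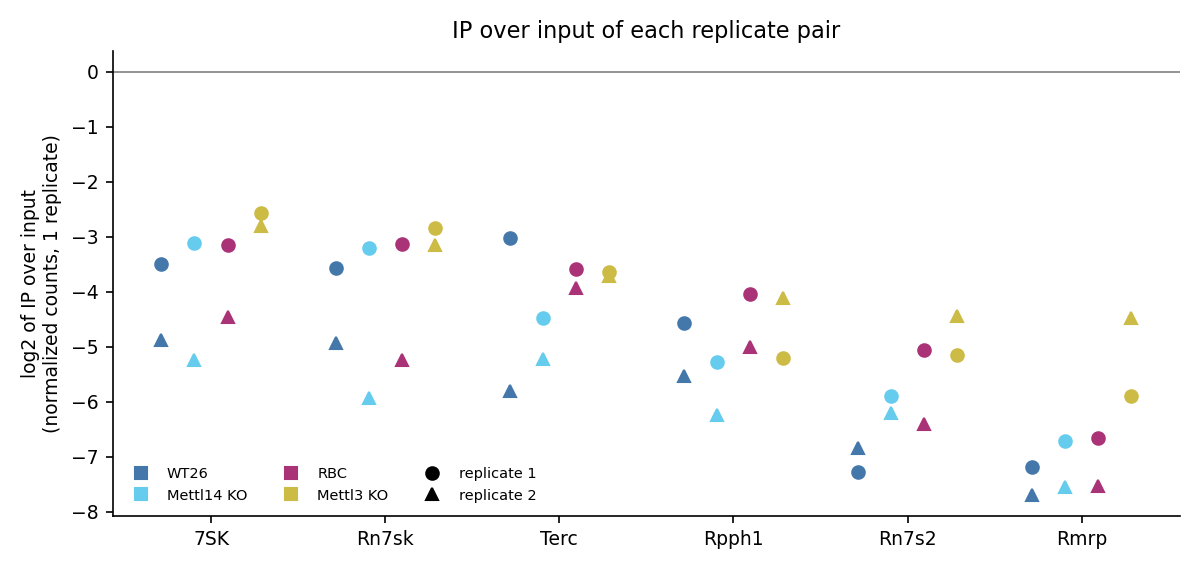
log2 of IP over input (vertical axis), from normalized counts, for each replicate of the 4 lines and for 7SK, Rn7sk and 4 other structured RNA genes. Colours mark the lines and symbols the replicates. Every point lies below 0, 7SK between -5.24 and -2.56 and Rmrp between -7.69 and -4.48.

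In RNA-seq, whose table holds genes and no repeats, Rn7sk rose in both knockouts. It had 128579.8 and 127935 normalized counts in *Mettl14* KO against 65147 and 62012 in WT26, and both knockout values lay above both control values. This is a 2.02-fold rise, or 1.01 on the log2 scale (SE 0.0893, adjusted p = 3.87e-08 in edgeR). In *Mettl3* KO it had 80019.8 and 100401 against 57996 and 71386 in RBC, again without overlap, which is 0.48 on the log2 scale (SE 0.0886, adjusted p = 0.000185). The controls RBC and WT26 differed by 0.03 (95% interval -0.16 to 0.21, adjusted p = 0.851). Rn7sk made up 1.03% and 1.04% of all counts in *Mettl14* KO and 0.533% and 0.51% in WT26.

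Changes were common in RNA-seq. Of 17021 genes, 25.5% were higher and 27.0% lower in *Mettl14* KO, 25.2% higher and 28.1% lower in *Mettl3* KO, and 19.7% higher and 19.2% lower in RBC against WT26. The rise of Rn7sk was larger in *Mettl14* KO, with a difference of 0.53 between the knockouts (95% interval 0.27 to 0.80, adjusted p = 0.00221 in edgeR). This difference is called for 22.4% of genes upward and 20.8% downward, and DESeq2 did not call it for Rn7sk (adjusted p = 0.0622), with a range of 2.86e-35 to 0.0622 over 4 alternatives. In the MeRIP inputs, which are separate libraries, the Rn7sk changes of 0.64 and 0.56 pointed the same way and did not pass. Markers of ES cells moved with the knockouts too. All 6 were lower in *Mettl14* KO (median -0.46), and in *Mettl3* KO 5 were lower and Klf4 higher (median -0.25), and their part in the Rn7sk values was not tested.

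**Figure D5:**
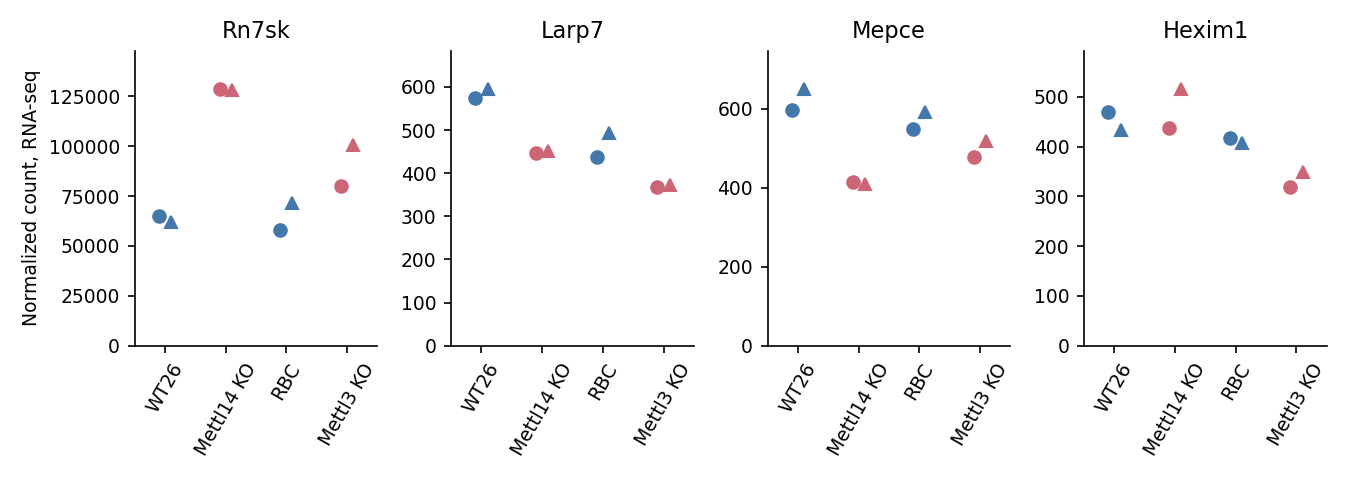
RNA-seq normalized counts (vertical axes, each from 0) of Rn7sk and of the genes of 3 proteins that bind 7SK, in the 4 lines. Blue marks control lines, red knockout lines, circles replicate 1 and triangles replicate 2. Rn7sk is higher in both knockouts, at 127935 or more in Mettl14 KO, and Larp7 is lower in both.

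Larp7, Mepce and Hexim1, whose proteins bind 7SK, were chosen from the list of binding proteins with their values known, so they stand for no group. Larp7 fell in both knockouts, with 447.7 and 452.0 normalized counts in *Mettl14* KO against 574.2 and 594.8 in WT26, and 367.8 and 371.7 in *Mettl3* KO against 438.0 and 493.9 in RBC. Its log2 fold changes were -0.38 (adjusted p = 0.000515 in edgeR) and -0.34 (adjusted p = 0.00184). Without RBC replicate 2 the second was -0.25 (adjusted p = 0.0523). Larp7 also differed between the controls, by -0.32 in RBC against WT26 (adjusted p = 0.00281). The Mir302 cluster overlaps Larp7 on the other strand. Mepce fell by 0.60 on the log2 scale in *Mettl14* KO (adjusted p = 5.19e-06) and by 0.20 in *Mettl3* KO (adjusted p = 0.0373). The second call was lost in DESeq2 (adjusted p = 0.184), without RBC replicate 2 (-0.15, adjusted p = 0.244) and without *Mettl3* KO replicate 1 (-0.14, adjusted p = 0.237). Hexim1 had 436.7 and 515.3 in *Mettl14* KO against 470.2 and 433.7 in WT26, with overlap (log2 fold change 0.07, adjusted p = 0.512), and fell by 0.31 in *Mettl3* KO (adjusted p = 0.00994). That call was lost without RBC replicate 1 (-0.29, adjusted p = 0.0501), without *Mettl3* KO replicate 1 (-0.24, adjusted p = 0.0857) and in DESeq2 (adjusted p = 0.0644).

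Over the whole list of 28 genes for proteins that bind 7SK, Y, 7SL and U RNAs, 27 were tested. In *Mettl14* KO 16 were lower, 1 was higher and 10 did not pass, with a median log2 fold change of -0.19 against 0 for all genes. In *Mettl3* KO 18 were lower, 1 was higher and 8 did not pass, with a median of -0.28. The higher gene in both was Srp68, a subunit of the signal recognition particle (0.67 and 0.34). Lsm4, of the Lsm ring on U6, changed most in *Mettl3* KO, from 1139 and 1218 in RBC to 585.2 and 556.0 (log2 fold change -1.05, adjusted p = 2.79e-10 in edgeR), and had -0.43 in *Mettl14* KO. Against the share of all genes called lower, 27.0% and 28.1%, the list had more lower genes in each comparison, and no test of the list was made. The binding protein genes called higher in *Mettl3* KO were 3 without *Mettl3* KO replicate 1.

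RNA polymerase III, which makes 7SK, is built from subunits and factors of which 29 genes were tested. In *Mettl14* KO 4 were higher and 4 lower (median -0.01), and in *Mettl3* KO 5 were higher and 12 lower (median -0.10). Polr3gl, the alternative subunit to Polr3g, fell in *Mettl3* KO from 137.9 and 113.4 in RBC to 53.9 and 69.5 (log2 fold change -1.03, adjusted p = 0.000157 in edgeR). Of 19 aminoacyl-tRNA synthetase genes, 2 were higher and 8 lower in *Mettl14* KO, and 3 higher and 10 lower in *Mettl3* KO. Of 18 tRNA processing and export genes, 4 were higher and 5 lower, and 2 higher and 8 lower. Of all genes, 25.5% were higher and 27.0% lower in the *Mettl14* KO comparison, with 25.2% and 28.1% in that of *Mettl3* KO. No test of these lists was made.

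Of 16 genes for RNA modification enzymes, 4 were higher and 5 lower in *Mettl14* KO, and 2 higher and 5 lower in *Mettl3* KO, where the shares over all genes were 25.5% and 27.0%, and 25.2% and 28.1%. Mettl16, the m6A methyltransferase of U6, rose in both, with log2 fold changes of 0.29 (adjusted p = 4e-05 in edgeR) and 0.41 (adjusted p = 7.37e-07). Zcchc4, which methylates 28S rRNA, rose by 0.44 and 0.20, the second not in DESeq2 (adjusted p = 0.0714) nor without RBC replicate 1 (0.18, adjusted p = 0.0526). Mettl5, which methylates 18S rRNA and is overlapped by Ssb on the other strand, fell by 0.47 in *Mettl14* KO and had -0.12 in *Mettl3* KO (adjusted p = 0.317). Adat2, a subunit of the tRNA adenosine deaminase, fell by 1.19 and 0.78.

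Of the RNA genes, 13 were tested in RNA-seq. In *Mettl14* KO 2 were higher, Rn7sk and Rpph1, and 2 lower, Terc and Rnu1a1, with a median of 0.24. In *Mettl3* KO 2 were higher, Rn7sk and Rnu2-10, and 4 lower, Terc, Rpph1, Rn7s1 and Rn7s2, with a median of 0.06. Over all 17021 genes, the test of *Mettl14* KO against WT26 called 25.5% higher and 27.0% lower. That of *Mettl3* KO against RBC called 25.2% higher and 28.1% lower. The RNA gene list itself was not tested against these shares. Rpph1 had 103191 and 95195 normalized counts in *Mettl14* KO against 47065 and 43304 in WT26, which is 1.13 on the log2 scale (adjusted p = 1.23e-08 in edgeR), while in *Mettl3* KO it had -0.22 (adjusted p = 0.0459, and 0.311 in DESeq2). Without RBC replicate 2 or *Mettl3* KO replicate 1 the latter was -0.06 and -0.08 and did not pass. Terc fell by 1.10 in *Mettl14* KO and by 0.60 in *Mettl3* KO, the second not in DESeq2 (adjusted p = 0.143). The *Mettl3* KO libraries had 1758 and 3151 normalized counts of Terc against 3530.3 and 3886 in RBC, and the value was -0.23 without *Mettl3* KO replicate 1 and -1.07 without replicate 2. Terc changed by -0.96 in the MeRIP inputs of *Mettl14* KO and by 0.08 in those of *Mettl3* KO. Neither passed (adjusted p = 0.572 and 0.982 in edgeR).

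Rn7s2 fell by 1.03 in the RNA-seq of *Mettl3* KO (adjusted p = 0.000491 in edgeR) and Rn7s1 by 0.80 (adjusted p = 0.00838). The call of Rn7s1 was lost in DESeq2 (adjusted p = 0.084) and without RBC replicate 2 (-0.62, adjusted p = 0.114). Their RNA-seq rows held at most 109.2 normalized counts, whereas their MeRIP inputs held between 7148 and 42544. Those inputs did not show the fall in *Mettl3* KO against RBC. Rn7s2 had 0.30 there and Rn7s1 -0.13 (adjusted p = 0.869 and 0.989 in edgeR). Both genes are overlapped by other genes on their own strand, and the bearing of this on the counts was not tested. Rny1, Rny3 and Rmrp passed in neither knockout in the main edgeR test of RNA-seq. Over the 4 alternatives that kept both replicates, the adjusted p of Rmrp ranged from 7.08e-26 to 0.471 in *Mettl14* KO (0.23 to 0.24). In *Mettl3* KO it ranged from 6.53e-09 to 0.706 (0.13 to 0.14). For Rny1 in *Mettl14* KO it ranged from 9e-04 to 0.458 (0.80 to 0.85). Rmrp had 209191 and 323210 normalized counts in *Mettl3* KO, on either side of 220825 and 263995 in RBC. Without *Mettl3* KO replicate 2 its log2 fold change turned from 0.14 to -0.21 (adjusted p = 0.0242), and without replicate 1 it was 0.42 (adjusted p = 5.98e-05). Rny3 had -0.20 in *Mettl3* KO and -1.29 without replicate 2 of that line (adjusted p = 0.00193).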

How the data were processed

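The authors deposited raw counts for MeRIP-seq (reads per gene and per repeat subfamily) and RNA-seq (reads per gene). Per the labels, reads were trimmed with cutadapt 1.8.1 and aligned to GRCm38 with STAR 2.6.0c, from rRNA-depleted stranded libraries. MeRIP RNA was sonicated, 3 reactions were combined per replicate, up to 100 alignments per read were kept, and reads were counted with TEtranscripts, which shares multimapping reads. The RNA-seq counter and its strand setting are not given in the sources used here. All 24 columns matched a sample by label, 0 were left over.

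Counts were tested here in R 4.3.3 with edgeR 4.0.16 (glmQLFit, glmQLFTest), size factors of DESeq2 1.42.0, filterByExpr and Benjamini-Hochberg adjustment over 22621 features (8 groups, 16 libraries) or 17021 genes (4 groups, 8 libraries). Scripts were tested on simulated data with 4-fold changes in 200 features. For *Mettl14* KO against WT26, edgeR recovered 12% of them in the change of IP over input, 56.5% in the input and 91% in RNA-seq. For IP over input in WT26 it recovered 54.5%. The total counts per library limit counting error only, and nothing says whether the replicates, which the study calls biological, came from separate cultures, so p-values measure the spread between these samples. Same-numbered MeRIP libraries deviated together: correlations of deviations from the group means were 0.195 to 0.28 between input and IP of a line, 0.251 to 0.452 between inputs and 0.598 to 0.806 between IPs, over 13662 features, so replicate numbers were used as a block in an alternative.

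Copies of Rn7sk were found with BLAST+ 2.17.0 (E value at most 1e-10) in GRCm38, and sequences and genes are those of GENCODE. The members and lists were chosen with earlier results of these data known. The genes named are 7SK, Mettl16, Mettl5, Zcchc4, Rn7sk, Rn7s1, Rn7s2, Rny1, Rny3, Rmrp and Rpph1, listed genes called with a log2 fold change above 1 in size, and Mettl3 and Mettl14. Larp7, Mepce, Hexim1 and the other genes named were added after their values were seen. The lists are RNA genes, RNA modification enzymes, RNA polymerase III, aminoacyl-tRNA synthetases, tRNA processing and export, RNA binding proteins and ES cell markers. Alternatives were DESeq2, TMM, library size, size factors from repeats, 2 other filters, fewer libraries, the replicate block, leaving out replicates, the adjusted p alone and, chosen after seeing the data, the 7SK and Rn7sk rows summed.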

Additional observations from a re-analysis of the deposited data

Results flagged for a closer look

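By a test of the difference in edgeR, the change in RNA-seq differed between the knockouts for 12 of the genes named. The difference is *Mettl14* KO against WT26, minus *Mettl3* KO against RBC, on the log2 scale. Over all 17021 genes, it was called for 22.4% upward and 20.8% downward. For Rn7sk the difference was 0.53 (standard error 0.125, adjusted p = 0.00221), with a rise in both knockouts, and 4 of 4 knockout libraries lay above their controls. Rpph1 differed by 1.36 (adjusted p = 1.94e-07), Rn7s2 by 1.45 (adjusted p = 0.000477) and Rn7s1 by 1.18 (adjusted p = 0.00508, and 0.0719 in DESeq2). Lsm4 differed by 0.62 (adjusted p = 2.22e-05), Mettl3 by 0.57 (adjusted p = 0.000169) and Polr3gl by 0.75 (adjusted p = 0.0161, and 0.078 in DESeq2). Mettl3 was called higher in *Mettl14* KO and was not called in *Mettl3* KO in the main edgeR test. Over the 4 alternatives that kept both replicates it had 0.41 in *Mettl14* KO and -0.17 to -0.16 in *Mettl3* KO. Of the genes of 7SK proteins, Mepce differed by -0.40 (adjusted p = 0.00756, and 0.059 in DESeq2) and Hexim1 by 0.38 (adjusted p = 0.0234, and 0.128 in DESeq2). Adat2 differed by -0.42 (adjusted p = 0.0305), Mettl5 by -0.35 (adjusted p = 0.0414) and Zcchc4 by 0.25 (adjusted p = 0.0252), and DESeq2 called none of these (adjusted p = 0.236, 0.225 and 0.155). What sets the knockouts apart was not tested, and each is 1 clone.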

How the results depend on the processing

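With the replicate block, 7SK in the *Mettl3* KO IP was called lower (-2.68), and the same held with DESeq2 (-2.64), no filter (-2.64), only the libraries of that line (-2.60) and the 7SK and Rn7sk rows summed (-2.89). The block changed no other call of 7SK in MeRIP-seq, and in RNA-seq it added calls of Rn7s2 in *Mettl14* KO (0.42), Mettl3 in *Mettl3* KO (-0.17) and the Terc difference between knockouts (-0.45). Leaving out 1 replicate gave -4.87 to -3.49 in WT26, -5.24 to -3.10 in *Mettl14* KO and -4.46 to -3.15 in RBC, with the call lost each time without replicate 2. The change of IP over input and the input level of 7SK were called under no alternative. Over the alternatives that kept both replicates, 5 to 15 structured RNA genes were called lower in WT26 and 5 to 14 in *Mettl14* KO. It was 5 to 14 in RBC and 5 to 12 in *Mettl3* KO. The number of structured RNA genes called lower was 5 in each line with at least 10 counts in every library, which leaves fewer genes to test, and 3 to 9, 4 to 9, 2 to 9 and 0 to 5 (WT26, *Mettl14* KO, RBC, *Mettl3* KO) when a replicate was left out. The number of binding protein genes called higher in *Mettl3* KO was 1 to 3 when a replicate was left out. DESeq2 did not call the difference of Rn7sk between knockouts (0.53), and Rmrp in *Mettl3* KO RNA-seq turned from 0.14 to -0.21 without replicate 2 of that line and was 0.42 without replicate 1. Where no cause is given, the cause was not tested. Scaling by library size moved the median feature of IP over input by 0.38 to 0.454 and size factors from repeats by 0.739 to 1.38 (log2); 7SK stayed below 0 in all 4 lines, at -2.81, -2.80, -2.52 and -2.00 with the latter. In RNA-seq, the correlation of same-numbered samples was not above 0.1 for every pair of lines, from -0.172 (WT26 with RBC) to 0.453 (RBC with *Mettl3* KO, which are compared), so the numbers were not taken to pair the samples. With the replicate block 16 and 18 binding protein genes were lower in *Mettl14* KO and *Mettl3* KO, as many as without it. Over the 4 alternatives that kept both replicates, 12 to 16 and 14 to 18 were lower. Rn7sk kept 1.01 and 0.48 with the block. The low counts of the Y RNAs and of Rnu1b6 limit what their rows show.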
